A study of Rattus norvegicus with 47 samples.

Results

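Alveolar type 1 cells are the thin, flat epithelial cells across which most gas exchange takes place, and 8 genes by which these cells are usually recognised in rodent lung were followed after silica inhalation: Ager, Cav1, Hopx, Aqp5, Pdpn, Clic5, Rtkn2 and Cldn18. They were taken by gene name, 8 of 30045 genes in each table, and each name stood on exactly 1 line. Transcripts were counted in the lungs and blood of male Fischer 344 rats that had inhaled either crystalline silica (Min-U-Sil 5, a fine quartz dust) or filtered air. Silica was given at 15 mg/m3 for 6 hours per day on 5 days, and rats were killed 1 day or 6 months after the exposure ended. Of 23 lung libraries, 6 came from silica rats and 6 from air rats at 1 day, and 6 from silica rats and 5 from air rats at 6 months; blood gave 24 libraries, 6 for each of the same 4 groups. The labels call no rat a carrier of any allele or transgene, give no age beyond the time after exposure, and name no chamber, so silica and chamber cannot be told apart.

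The flat cell is built for short diffusion distance. It carries the receptor for advanced glycation end products (Ager) on its basal side, caveolae coated by caveolin-1 (Cav1), water channels (Aqp5), podoplanin (Pdpn) on its apical face and claudin-18 (Cldn18) in its tight junctions. Type 1 cells arise from cuboidal type 2 cells, the makers of surfactant, when the alveolar surface is repaired, and the transcriptional cofactor Hopx is switched on along that path. Several of these genes are also used elsewhere: Cav1 is abundant in endothelium, Pdpn in lymphatic endothelium and mesothelium, Cldn18 is known in type 2 cells as well, and Hopx is known in lymphocytes.

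Promoters of 4 genes are shown because these genes carry the results: Cav1 and Ager fell at both times, Hopx fell at 1 day, and Cldn18 was the gene of the 8 that rose. The sequences are those of RefSeq for the rat build GRCr8, from 250 bases before to 50 bases after the annotated start, read 5′ to 3′ on the strand of the gene. Capitals mark matches, on either strand, to any of 6 short motifs. The TEAD motif searched was GGAATG, a site bound by the DNA-binding partners of YAP and TAZ. The motif for NKX2 factors, the family of the lung regulator Nkx2-1, was CAAGTG. The GC box, to which Sp1-type factors bind, was searched as GGGCGG. For the FOXA factors of the foregut the letters were TGTTTAC, and for GATA factors they were AGATAA. The TATA box, where the basal machinery sits in part of all promoters, was searched as TATAAA.
Cav1, first of 2 annotated promoters, chr4:46606288-46606587, plus strand: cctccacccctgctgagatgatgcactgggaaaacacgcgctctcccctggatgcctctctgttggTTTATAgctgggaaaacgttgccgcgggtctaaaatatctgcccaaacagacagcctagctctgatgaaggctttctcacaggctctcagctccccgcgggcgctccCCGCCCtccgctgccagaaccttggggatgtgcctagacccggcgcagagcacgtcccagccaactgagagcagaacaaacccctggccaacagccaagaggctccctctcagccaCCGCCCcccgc
Ager, chr20:4155636-4155935, minus strand: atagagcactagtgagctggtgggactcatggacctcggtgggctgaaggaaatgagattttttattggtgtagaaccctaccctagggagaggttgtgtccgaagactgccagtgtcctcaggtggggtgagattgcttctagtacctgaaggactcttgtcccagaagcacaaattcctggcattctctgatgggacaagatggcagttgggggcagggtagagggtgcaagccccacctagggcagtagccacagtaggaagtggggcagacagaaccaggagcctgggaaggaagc
Hopx, chr14:31429163-31429462, plus strand: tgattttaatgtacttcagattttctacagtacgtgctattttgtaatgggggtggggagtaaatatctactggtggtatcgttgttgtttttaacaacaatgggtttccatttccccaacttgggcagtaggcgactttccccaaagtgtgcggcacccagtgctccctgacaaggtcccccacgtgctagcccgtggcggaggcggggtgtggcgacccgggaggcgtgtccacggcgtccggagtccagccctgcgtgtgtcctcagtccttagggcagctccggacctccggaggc
Cldn18, chr8:109144570-109144869, minus strand: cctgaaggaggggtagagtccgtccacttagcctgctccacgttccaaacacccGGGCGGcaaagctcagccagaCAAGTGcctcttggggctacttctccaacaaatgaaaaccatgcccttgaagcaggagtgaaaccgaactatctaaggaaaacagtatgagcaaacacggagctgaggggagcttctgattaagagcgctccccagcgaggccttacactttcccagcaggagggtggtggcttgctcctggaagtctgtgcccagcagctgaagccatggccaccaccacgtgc
The Cav1 sequence holds 2 GC boxes and 1 TATA match, all on the opposite strand, and the second Cav1 promoter held none of the 6 motifs. The Cldn18 sequence holds 1 GC box and 1 NKX2 match, and those of Ager and Hopx hold none. Over the 9 annotated promoters of the 8 genes, the GC box stood in 6, against 33.1% of 33469 rat promoters of the same length. These 9 windows held 51% (Pdpn) to 82.3% (Aqp5) G or C, and all but that of Pdpn were above the median of all promoters, 51.7%. The GC box count was not adjusted for this. The NKX2 motif stood in 1 of 9 (14.1% of all promoters), TATAAA in 1 of 9 (14.2%), and the TEAD, FOXA and GATA motifs in 0 of 9 (14.2%, 3.78% and 11.6% of all promoters). A match describes the letters of this window and no more, and the motifs overlapped nowhere among the 4 sequences.

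Lung libraries held 12050267 to 25875985 estimated counts, and each of the 8 genes had between 2111 and 63139 counts in every lung library. Within a lung group the coefficient of variation of a gene ran from 2.3% to 11.6%. Levels are given as CPM, the count of a gene relative to the scaled total of its library, and are compared between groups for 1 gene at a time, since CPM takes no account of gene length. Set against blood, these genes marked the lung libraries: Cldn18, the claudin of the alveolar tight junction, was at 0 counts in all 24 blood libraries, and Aqp5 had counts in 1 of them. Cav1, Pdpn and Rtkn2 stayed below 2 CPM in every blood library, while Hopx was plainly present in blood and is described for both tissues further on.

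At 1 day, 5 of the 8 genes fell in silica lung and 0 rose (edgeR quasi-likelihood test, Benjamini-Hochberg adjusted p under 0.05), where 5.72% of the 15331 genes tested fell and 8.39% rose; no gene of the 8 had a positive fold change. Of the genes that fell, Pdpn had the smallest change in mean CPM (-8.29%) and Hopx the largest (-17.4%). The median log2 fold change of the 8 genes was -0.15, against -0.0024 over all genes tested. At 6 months, 3 of the 8 genes fell and 1 rose, where 6.38% of 15309 genes fell and 9.84% rose, and the median was -0.15 against -0.0080 over all genes. In bulk lung, fewer cells of a type and less RNA per cell cannot be told apart. The count at 1 day rested on single libraries: it was 2 without the library of air rat 42, 2 without silica rat 48 and 3 without silica rat 46.

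**Figure D1:**
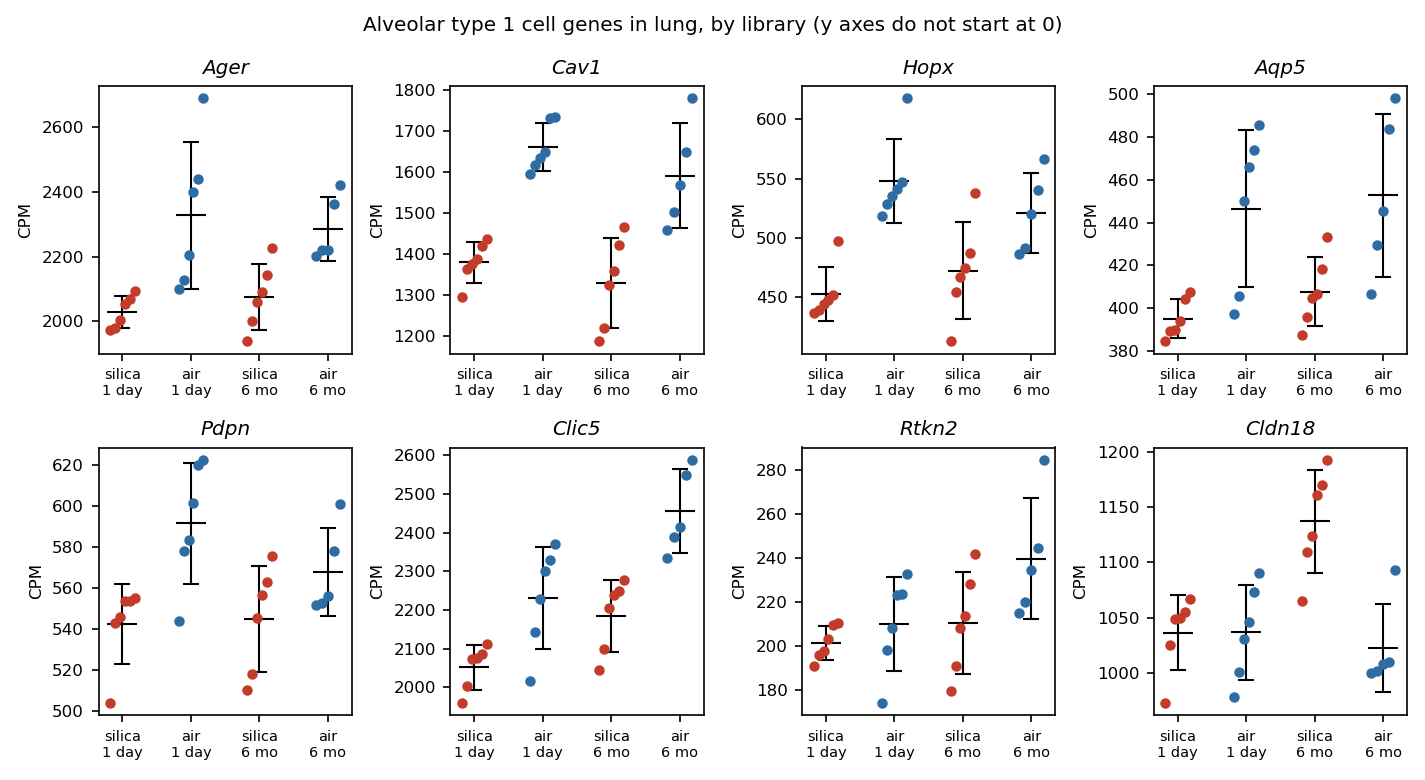
CPM of the 8 genes in each lung library (each panel has its own vertical axis, which does not start at 0), with silica groups left of air groups at 1 day and 6 months; points are rats and bars are the mean and SD. Cav1, Hopx and Ager of all 6 silica lungs lay below all 6 air lungs at 1 day, and Cldn18 of silica lungs lay above most air lungs at 6 months.

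Cav1, the coat protein of caveolae, fell at both times by nearly the same amount. At 1 day its lowest, median and highest levels were 1295, 1383 and 1438 CPM in silica lungs, against 1595, 1641 and 1733 CPM in air lungs. All silica libraries were below all air libraries, a pattern found in 2.75% of all genes tested. Its log2 fold change was -0.27 ± 0.033 (SE; adjusted p = 9.38e-05, edgeR). At 6 months the lowest, median and highest were 1188, 1342 and 1465 CPM in silica lungs, and the 5 air lungs had 1568, 1502, 1648, 1779 and 1458 CPM. The groups overlapped by a single pair, the highest silica lung being just above the lowest air lung. The log2 fold change was -0.26 ± 0.064 (SE; adjusted p = 0.0164, edgeR), and the mean CPM fell by 16.8% at 1 day and by 16.4% at 6 months.

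Ager, the multiligand receptor also called RAGE, is among the most used markers of the type 1 cell. Its lowest, median and highest levels at 1 day were 1973, 2029 and 2092 CPM in silica lungs, against 2099, 2302 and 2691 CPM in air lungs. The groups did not overlap, and the air lungs were far more scattered (coefficient of variation 9.74%) than the silica lungs (2.45%). The log2 fold change was -0.20 ± 0.054 (SE; adjusted p = 0.0225, edgeR). At 6 months the levels were 1938, 2075 and 2226 CPM in silica lungs, and 2362, 2201, 2421, 2221 and 2222 CPM in air lungs. Of the 6 silica lungs, 5 were below every air lung, and the log2 fold change was -0.14 ± 0.042 (SE; adjusted p = 0.0403, edgeR). Both Ager calls were near the threshold: the call at 1 day was lost without air rat 42 (adjusted p = 0.0516) or silica rat 48 (adjusted p = 0.0524), and that at 6 months without air rat 49 or 52 or silica rat 58, 59, 60 or 61 (adjusted p between 0.0523 and 0.0915, edgeR).

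Hopx, an atypical homeodomain protein that binds no DNA by itself, fell at 1 day by about as much as Cav1. Its lowest, median and highest levels were 436, 446 and 497 CPM in silica lungs, against 518, 538 and 618 CPM in air lungs. No silica lung reached the lowest air lung, and the log2 fold change was -0.28 ± 0.045 (SE; adjusted p = 0.000911, edgeR). At 6 months it had 413, 471 and 538 CPM in silica lungs, and 520.0, 491, 540.2, 567 and 486 CPM in air lungs. The groups overlapped, and the log2 fold change of -0.14 ± 0.061 (SE) did not pass (adjusted p = 0.140, edgeR). Without silica rat 59, the highest of the silica lungs, it passed (adjusted p = 0.0419).

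Aqp5, the water channel of the apical membrane, had 385, 392 and 408 CPM as lowest, median and highest in silica lungs at 1 day, against 397, 458 and 486 CPM in air lungs. The silica lungs clustered tightly at the bottom of the air range, with 4 of 6 below every air lung. The log2 fold change was -0.18 ± 0.048 (SE; adjusted p = 0.0227, edgeR), and the call was lost without air rat 42, silica rat 46 or silica rat 48 (adjusted p between 0.0501 and 0.0541). At 6 months the levels were 388, 406 and 433 CPM in silica lungs and 498, 406, 484, 429.7 and 445 CPM in air lungs. The groups overlapped, and the fold change of log2 -0.15 ± 0.052 (SE) did not pass (adjusted p = 0.0643, edgeR), although it did without air rat 51 (adjusted p = 0.0229).

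Pdpn, a mucin-type membrane glycoprotein, had 504, 549 and 555 CPM as lowest, median and highest in silica lungs at 1 day, against 544, 592 and 622 CPM in air lungs. The ranges overlapped, and the log2 fold change of -0.12 ± 0.038 (SE) passed by little (adjusted p = 0.0392, edgeR). That call did not hold when any 1 of 11 of the 12 libraries was left out, with adjusted p between 0.0516 and 0.0808; air rat 40 was the exception. At 6 months Pdpn ran from 510.3 to 575 CPM in silica lungs and from 551 to 601 CPM in air lungs, with a log2 fold change of -0.06 ± 0.039 (SE; adjusted p = 0.337, edgeR).

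Clic5, a protein of the chloride intracellular channel family that ties membranes to the actin cortex, passed the test at 6 months and not at 1 day. At 1 day its lowest, median and highest levels were 1959, 2074 and 2111 CPM in silica lungs, against 2016, 2264 and 2372 CPM in air lungs, and the log2 fold change of -0.12 ± 0.039 (SE) missed the threshold (adjusted p = 0.0526, edgeR). The lowest air lung was that of rat 39, and without it the adjusted p was 0.00568, while without air rat 38 it was 0.0436. At 6 months its lowest, median and highest levels were 2044, 2222 and 2277 CPM in silica lungs, against 2414, 2335, 2550.4, 2589 and 2389.7 CPM in air lungs. All silica lungs were below all air lungs, as for 3.5% of genes tested, and the log2 fold change was -0.17 ± 0.040 (SE; adjusted p = 0.0132, edgeR).

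Rtkn2 had the largest coefficient of variation of the 8 genes, 11.6% in air lungs at 6 months. It ran from 191 to 211 CPM in silica lungs and from 174 to 233 CPM in air lungs at 1 day, with a log2 fold change of -0.06 ± 0.059 (SE; adjusted p = 0.557, edgeR). At 6 months it ran from 179.8 to 242 CPM in silica lungs and from 215 to 285 CPM in air lungs, with a log2 fold change of -0.19 ± 0.084 (SE; adjusted p = 0.151, edgeR). Neither value passed the test; 0 of 6 silica lungs were below every air lung at 1 day, and 4 of 6 at 6 months.

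Cldn18, whose lung form seals the junctions between alveolar epithelial cells, stood apart from the rest. At 1 day its lowest, median and highest levels were 973, 1049 and 1067 CPM in silica lungs and 978, 1039 and 1091 CPM in air lungs, and both groups had a mean of 1037 CPM. The log2 fold change was -0.00023 ± 0.034 (SE; adjusted p = 0.998, edgeR). At 6 months the levels were 1066, 1142 and 1193 CPM in silica lungs, against 1008, 1010.0, 1093, 1002 and 1000.4 CPM in air lungs. Of the 6 silica lungs, 5 were above every air lung, the highest air lung being rat 52. Cldn18 rose by 11.2% (log2 fold change 0.15 ± 0.038, SE; adjusted p = 0.0162, edgeR).

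**Figure D2:**
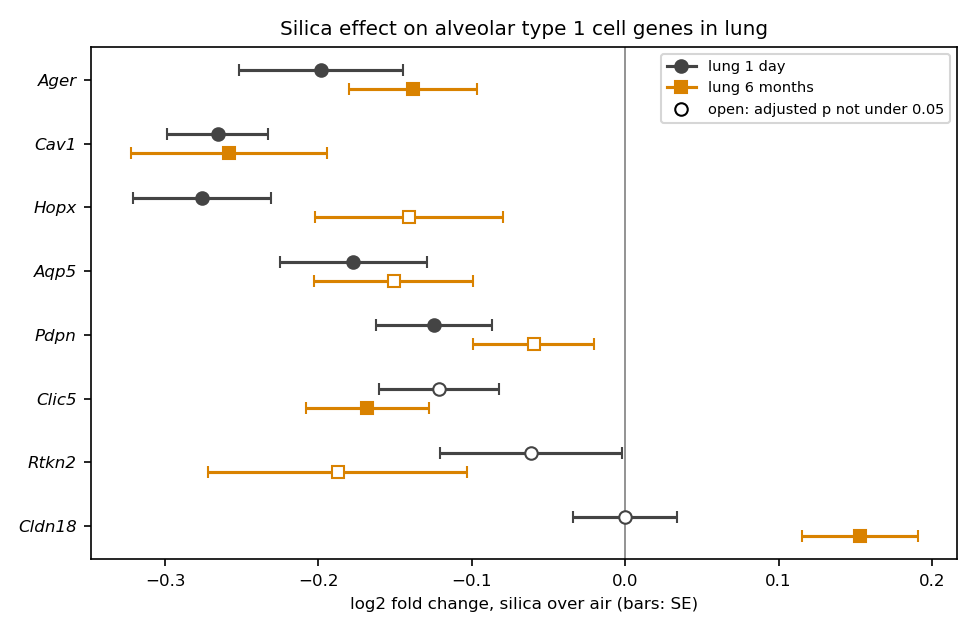
Log2 fold change of silica over air in lung for each gene at 1 day (circles) and 6 months (squares), with bars of 1 SE; filled symbols passed an adjusted p of 0.05. The 1 day and 6 month values of Cav1 lie at -0.27 and -0.26, and Cldn18 is the gene at 0.15 on the positive side at 6 months.

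Whether the silica effect itself differed between the times was tested as an interaction over the 4 lung groups. None of the 8 genes passed with edgeR, DESeq2 or limma-voom, where in the edgeR fit 1.12% of 15786 genes had a higher log2 effect at 6 months and 0.253% a lower one. The largest difference was that of Cldn18, whose log2 effect was higher by 0.16 ± 0.048 (SE) at 6 months (unadjusted p = 0.00303, adjusted p = 0.112, edgeR), the 1 gene of the 8 with an unadjusted p under 0.05. For Hopx the difference was 0.14 ± 0.079 (SE; adjusted p = 0.452), and for the other 6 genes the adjusted p was 0.599 or more. The calls that passed at 1 time and not at the other are therefore not shown to differ between times.

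The 8 genes were next compared with each other inside each library, as ratios of estimated counts, which need no scaling between libraries. All 28 pairs were taken at both times, giving 56 exact two-sided permutation tests over libraries, adjusted together; these were added after the data had been seen. At 1 day, 5 of the 7 ratios with Cldn18 on top were higher in silica lungs by the adjusted exact test, against 4 of the 21 ratios of other pairs that differed in either direction. At 6 months these counts were 6 of 7 and 2 of 21. The ratio of Cldn18 to Cav1 had a median of 0.751 in silica lungs and 0.631 in air lungs at 1 day, and of 0.849 in silica lungs and 0.663 in air lungs at 6 months, with no overlap at either time (adjusted exact p = 0.0173 at both). The ratio of Cldn18 to Ager had a median of 0.506 in silica lungs and 0.457 in air lungs at 1 day, and of 0.543 in silica lungs and 0.451 in air lungs at 6 months, again without overlap (adjusted exact p = 0.0173). At 6 months the ratio that did not pass was that of Cldn18 to Rtkn2 (adjusted exact p = 0.0539). Among the other pairs, the ratio of Cav1 to Pdpn was lower in silica lungs at both times, by log2 -0.14 at 1 day (adjusted exact p = 0.0357) and log2 -0.20 at 6 months (adjusted exact p = 0.0173). At 1 day the ratios of Cav1 to Clic5, Cav1 to Rtkn2 and Hopx to Pdpn were lower too; at 6 months the ratio of Hopx to Cav1 was higher in silica lungs by log2 0.12. Since pairs share genes, these tests are not independent of each other. They use the same counts as the tests of single genes and so give those results no separate support. The share of other gene pairs with ratios that differ or do not overlap was not computed.

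**Figure D3:**
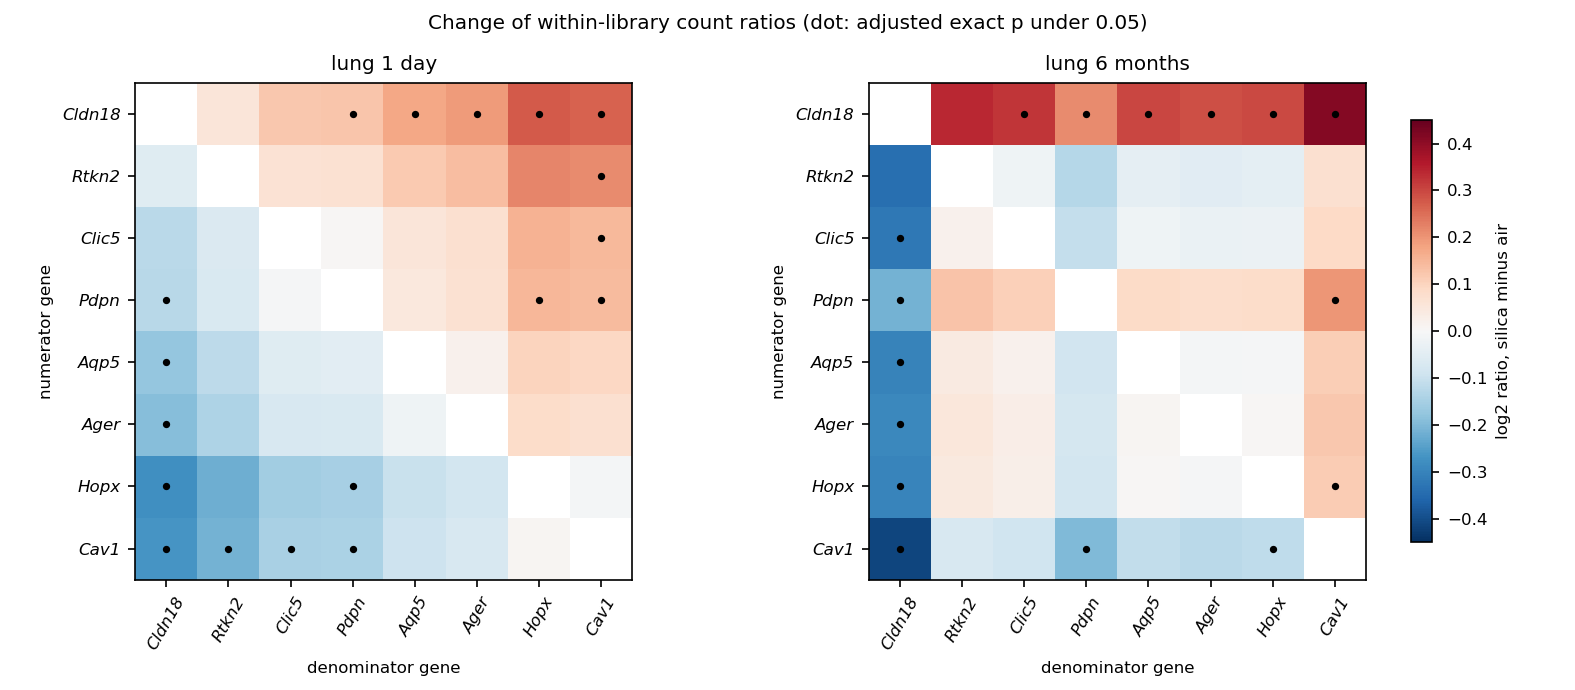
Difference of mean log2 count ratio, silica minus air, for every pair of the 8 genes (row gene over column gene) at 1 day (left) and 6 months (right); dots mark pairs with an adjusted exact p under 0.05. The Cldn18 row is positive throughout, from 0.055 to 0.275 at 1 day and from 0.213 to 0.412 at 6 months.

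Inside groups, the 8 genes varied together more at 6 months than at 1 day, a description without a test of that difference. Log2 CPM was centred on each group mean, and the 28 pairs were correlated over the 23 lung libraries, with 100000 permutations and adjustment over the pairs. The median Pearson r was 0.259, with a range of -0.255 to 0.786. At 1 day (12 libraries) r was above 0 in 14 of the 28 pairs, with a median of -0.0434, and at 6 months (11 libraries) in 24 of 28, with a median of 0.400. Over all 23 libraries, 4 pairs passed, and each of the 8 genes stood in 1 of them. The share of other gene pairs that would pass was not computed, so the pairing cannot be called particular to these genes. Ager went with Aqp5 (r = 0.783, adjusted permutation p = 0.00177; Spearman coefficient = 0.821, adjusted permutation p = 0.0014). Hopx went with Cav1 (r = 0.782, adjusted permutation p = 0.00112; Spearman coefficient = 0.811, adjusted permutation p = 0.0014). Clic5 went with Rtkn2 (r = 0.786, adjusted permutation p = 0.00177; Spearman coefficient = 0.739, adjusted permutation p = 0.00595). Pdpn went with Cldn18 (r = 0.732, adjusted permutation p = 0.00511; Spearman coefficient = 0.752, adjusted permutation p = 0.00448). Without the 2 libraries farthest from the median of the first gene, r was 0.774, 0.758, 0.661 and 0.611 for these pairs in that order. Computed at 1 day and at 6 months apart, r was 0.786 and 0.823 for Ager with Aqp5, 0.424 and 0.933 for Hopx with Cav1, 0.786 and 0.815 for Clic5 with Rtkn2, and 0.819 and 0.639 for Pdpn with Cldn18. Other pairs turned in sign: r at 1 day and at 6 months was -0.634 and 0.659 for Ager with Clic5, -0.745 and 0.401 for Ager with Rtkn2, -0.760 and 0.805 for Hopx with Clic5, and -0.638 and 0.691 for Hopx with Rtkn2. No single relation over both times described these pairs. The points share the scaling of their library, which moves all genes of a library together.

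The genes most like the mean centred profile of the 8 genes, among 15154 genes tested at both times, were Emp2 (Pearson r = 0.891 over 23 lung libraries), Hsd11b1 (r = 0.797), Cgnl1 (r = 0.789), Ablim3 (r = 0.781) and Hibadh (r = 0.770), given as a description. Emp2 is a tetraspan membrane protein that is itself a type 1 marker, and its own silica effect was log2 -0.07 at 1 day (adjusted p = 0.0848) and log2 -0.12 at 6 months (adjusted p = 0.0828, edgeR). Ablim3, an actin-binding LIM protein, fell at both times, by log2 -0.20 at 1 day (adjusted p = 0.00258) and log2 -0.20 at 6 months (adjusted p = 0.0262, edgeR). Cgnl1 instead rose at 1 day (log2 0.15, adjusted p = 0.0119) and had log2 -0.03 at 6 months (adjusted p = 0.793, edgeR). Hsd11b1 and Hibadh passed at neither time (adjusted p of 0.0674 or more, edgeR).

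Of 26 further genes known from type 1 cells, all tested, 7 fell and 2 rose at 1 day, with a median log2 fold change of -0.08. Of all genes tested, 5.72% fell and 8.39% rose at that time. At 6 months 3 of the 26 fell and 1 rose, with a median of -0.09, where 6.38% of all genes fell and 9.84% rose. The summed level of the 26 genes ran from 9943 to 10361 CPM in silica lungs and from 10718 to 11215 CPM in air lungs at 1 day. At 6 months it ran from 9726 to 10749.5 CPM in silica lungs and from 10641 to 11771 CPM in air lungs. The sums were thus apart at 1 day and overlapped at 6 months. Sec14l3, a lipid-binding protein, fell at both times (log2 -0.40, adjusted p = 3.11e-05, and log2 -0.28, adjusted p = 0.00254, edgeR), as did Cav2, the partner of caveolin-1 (log2 -0.18, adjusted p = 0.0041, and log2 -0.26, adjusted p = 0.00445). Krt19 (log2 -0.40) and Gprc5a (log2 -0.31) fell at 1 day. The Gprc5a value at 6 months was log2 -0.10 (adjusted p = 0.270). Vegfa, through which type 1 cells signal to capillaries, had log2 -0.08 at 1 day (adjusted p = 0.138) and log2 -0.13 at 6 months (adjusted p = 0.176), and Igfbp2 had log2 -0.29 (adjusted p = 0.0609) and log2 0.05 (adjusted p = 0.879).

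Lists of genes that act with the 8 gave mixed counts, and 9 genes stand on 2 lists, among them Cav2. Over all genes tested, 8.39% rose and 5.72% fell at 1 day, and 9.84% rose and 6.38% fell at 6 months. No list was tested as a set, so a small count is not shown to differ from these shares. Of 5 caveola genes tested, 2 fell and 0 rose at each time: Cav2 and Ehd2, an ATPase at the caveola neck (log2 -0.20, adjusted p = 0.00141 at 1 day; log2 -0.21, adjusted p = 0.00198 at 6 months, edgeR). Of 6 RAGE ligand genes, 2 rose at each time, both encoding subunits of calprotectin, which leukocytes make in quantity: S100a9 (log2 1.87 at 1 day and log2 1.51 at 6 months) and S100a8 (log2 1.06 and log2 0.75), while S100a6 fell at 1 day (log2 -0.37). Of 4 other aquaporins tested, Aqp1, the water channel of capillaries, fell at both times (log2 -0.23 and log2 -0.32), and Aqp9 rose at both (log2 0.62 and log2 0.59); Aqp3 rose at 1 day (log2 0.84) and had log2 1.07 at 6 months (adjusted p = 0.0528, edgeR). The Aqp9 call at 1 day was lost without air rat 42 or silica rat 43, 44, 46 or 47 (adjusted p between 0.0571 and 0.0732). Of 12 other claudin and tight junction genes, 1 rose and 2 fell at 1 day, and 1 rose and 3 fell at 6 months. Cldn5, the endothelial claudin, fell at both times (log2 -0.35 and log2 -0.23; adjusted p = 0.0583 at 6 months without air rat 49), and Cldn4 had log2 0.07 (adjusted p = 0.720) and log2 0.33 (adjusted p = 0.166). Of 10 genes of alveolar sodium and chloride transport, 4 rose and 1 fell at each time; Cftr, a chloride channel, rose at both (log2 0.62 and log2 0.66), as did Clic1, a relative of Clic5 (log2 0.24 and log2 0.37), and Clic3 fell at both (log2 -0.28 and log2 -0.22). Of 6 genes for partners of podoplanin, 1 rose and 3 fell at 1 day, and 1 rose and 1 fell at 6 months: Cd44 rose at both times (log2 0.28 and log2 0.50), the linker Ezr (log2 -0.26) and the tetraspanin Cd9 (log2 -0.30) fell at 1 day, and Rdx, a relative of Ezr, fell at both times (log2 -0.10, adjusted p = 0.0162, and log2 -0.24, adjusted p = 0.00287, edgeR).

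Regulators and differentiation markers were counted in the same way, again without a test of any list as a set. The shares over all genes were 8.39% risen and 5.72% fallen at 1 day, and 9.84% and 6.38% at 6 months. Of 13 genes of the YAP, TAZ and TEAD group, which acts in the spread type 1 cell, 2 fell and 0 rose at 1 day (Tead3 at log2 -0.16 and Ajuba at log2 -0.17), and 4 fell and 0 rose at 6 months, among them Amotl1 (log2 -0.28, adjusted p = 0.00231, edgeR). Of 10 lung epithelial transcription factors, Nkx2-1 rose at both times (log2 0.24, adjusted p = 0.000911, and log2 0.23, adjusted p = 0.0127, edgeR), and Cebpa rose at 6 months (log2 0.41). Of 16 genes listed for transitional alveolar epithelium, the state between type 2 and type 1 cells, 1 rose and 3 fell at 1 day, the falls being those of the keratins Krt8 (log2 -0.25), Krt19 and Krt7 (log2 -0.28). At 6 months 4 rose and 0 fell, among them Lgals3 (log2 0.84) and Plaur (log2 0.96), which macrophages also express, while Krt8 had log2 -0.02 (adjusted p = 0.899).

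**Figure D4:**
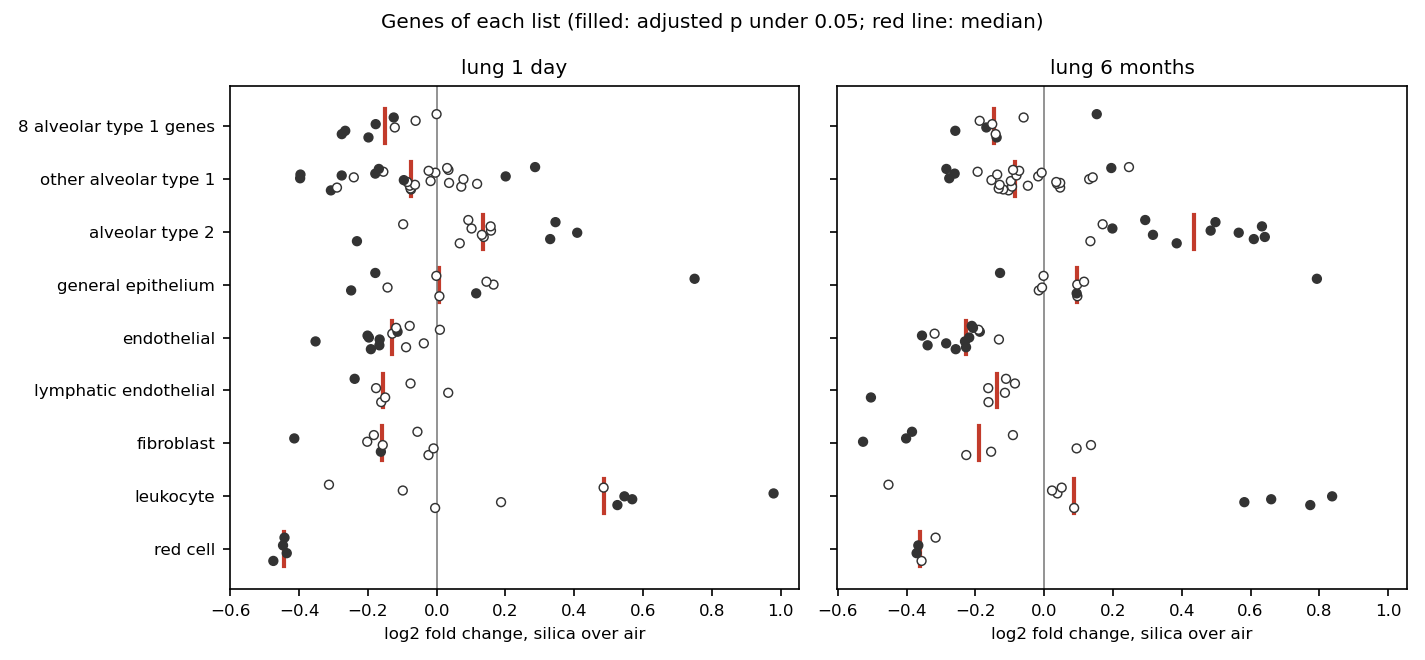
Log2 fold changes of silica over air in lung for each tested gene of the 8 followed here and of the lists of cell type markers, at 1 day (left) and 6 months (right); each point is a gene, filled where its adjusted p was under 0.05, and the red line is the list's median. The medians of the 8 genes are -0.15 at both times, and that of the alveolar type 2 list is 0.13 at 1 day and 0.43 at 6 months. The mesothelial list is not drawn.

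Markers of other cells moved in the same lungs. Beside the counts below, 8.39% of all genes tested rose and 5.72% fell at 1 day, and 9.84% rose and 6.38% fell at 6 months. Of 13 endothelial genes, 7 fell and 0 rose at 1 day, and 10 fell and 0 rose at 6 months, Pecam1 by log2 -0.19 and log2 -0.26; their summed level was 5742 to 6357 CPM in silica lungs and 6190.4 to 6810.5 CPM in air lungs at 1 day, and 5039 to 6046 CPM in silica lungs and 6294 to 7049 CPM in air lungs at 6 months. Of 12 type 2 genes, 3 rose and 1 fell at 1 day and 10 rose and 0 fell at 6 months; their sum was 24763 to 31308 CPM in silica lungs and 24308 to 29668 CPM in air lungs at 1 day, and 32374 to 39871 CPM in silica lungs and 22807 to 28585 CPM in air lungs at 6 months. Sftpc, the surfactant protein C gene, had log2 0.07 (adjusted p = 0.476) and then rose by log2 0.39. Of 9 leukocyte genes tested, 4 rose and 0 fell at each time, with sums of 24258 to 32907 CPM in silica lungs and 23917 to 29447 CPM in air lungs at 1 day, and 33584 to 46104 CPM in silica lungs and 22573 to 29746 CPM in air lungs at 6 months. These sums are almost only Lyz2, a lysozyme gene, and which cells its counts came from was not tested. Lyz2 averaged 28556 CPM in silica lungs and 25080 CPM in air lungs at 1 day (log2 0.19, adjusted p = 0.100, edgeR). At 6 months it averaged 37961 CPM in silica lungs and 25359 CPM in air lungs (log2 0.58, adjusted p = 0.000897, edgeR). Ptprc, which all leukocytes express, had log2 -0.0044 (adjusted p = 0.977) and log2 0.09 (adjusted p = 0.379). The 4 leukocyte genes that rose at 1 day were Csf3r (log2 0.98, adjusted p = 0.00549), Itgam (log2 0.57, adjusted p = 0.000348), Itgax (log2 0.55, adjusted p = 7.89e-05) and Cd68 (log2 0.53, adjusted p = 0.0101, edgeR). Of 8 fibroblast genes, 2 fell at 1 day and 3 at 6 months, Lum, a small proteoglycan of matrix, by log2 -0.41 and log2 -0.40; the sums were 1190.1 to 1369.6 CPM in silica lungs and 1366 to 1463 CPM in air lungs at 1 day, and 1079.7 to 1218 CPM in silica lungs and 1229 to 1267 CPM in air lungs at 6 months. Of 4 red cell genes tested, 4 fell at 1 day and 2 at 6 months, with sums of 3369 to 4452 CPM in silica lungs and 4498 to 5953 CPM in air lungs at 1 day, and 3728 to 5827 CPM in silica lungs and 4859 to 6858 CPM in air lungs at 6 months. The 2 calls at 6 months, of the alpha globin genes Hba1 and Hba2, were lost without any 1 of 6 (Hba1) and 8 (Hba2) of the 11 libraries (adjusted p between 0.0518 and 0.0866). Of 6 lymphatic genes 1 fell at each time, Ccl21 (log2 -0.24) at 1 day and Prox1 (log2 -0.50) at 6 months, the second lost without air rat 49, 51 or 54 or silica rat 58 or 59 (adjusted p between 0.0504 and 0.0644). Lymphatic sums overlapped, at 519.7 to 601 CPM in silica lungs and 583 to 678 CPM in air lungs at 1 day, and 492.99 to 686.6 CPM in silica lungs and 559.6 to 650.4 CPM in air lungs at 6 months. Of 5 mesothelial genes 0 passed in either direction at either time. The mesothelial sums overlapped as well, at 67.8 to 144 CPM in silica lungs and 83.9 to 146 CPM in air lungs at 1 day, and 49.2 to 191 CPM in silica lungs and 47.4 to 181 CPM in air lungs at 6 months. Of 9 general epithelial genes, 2 rose and 2 fell at 1 day, and 2 rose and 1 fell at 6 months, with sums of 834 to 939 CPM in silica lungs and 860.2 to 908 CPM in air lungs at 1 day, and 852 to 928 CPM in silica lungs and 813 to 856 CPM in air lungs at 6 months. Epcam had log2 0.01 (adjusted p = 0.942) and log2 0.10 (adjusted p = 0.0987). No gene of these cell type lists was at 0 in all libraries of a time. CPM is a share of the library, and the part of these cell types in the values of the 8 genes was not tested.

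Blood gave a value for Hopx under the same exposure, and there it was opposite in sign at 1 day. Blood Hopx had 144.5, 172 and 184 CPM as lowest, median and highest in silica rats, against 130.4, 138 and 153 CPM in air rats. All but 1 of the silica values were above every air value, and the log2 fold change was 0.29 ± 0.061 (SE; adjusted p = 0.0325, edgeR), where 1.19% of 12253 genes rose. That call was lost in 9 of the 12 fits that each left out 1 library, without air rat 37, 39, 41 or 42 or silica rat 44, 45, 46, 47 or 48 (adjusted p between 0.0530 and 0.0899). At 6 months blood Hopx had 134, 146 and 161 CPM in silica rats and 148, 154 and 179 CPM in air rats, with a log2 fold change of -0.12 ± 0.059 (SE; adjusted p = 0.589, edgeR), where 1 of 11629 genes was called (0.0086%). The other genes of the 8 tested in blood, Ager and Clic5, had log2 values of 0.30 (adjusted p = 0.485) and -0.16 (adjusted p = 0.729) at 1 day and were below 7 CPM in every blood library.

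Lung and blood libraries carry animal numbers, by which the 2 tissues were set against each other in a comparison added after the data had been seen; the labels do not state that a number is the same rat in both tissues. At 1 day the log2 level of Hopx in lung minus that in blood was 1.412 ± 0.189 in silica rats and 1.972 ± 0.120 in air rats (SD, n = 6 each). Every silica rat was below every air rat, and the difference was -0.56 (exact two-sided permutation p = 0.00216, the smallest that 6 against 6 allows; adjusted over the 2 times, 0.00433). This difference joins the fall in lung to the rise in blood already described. The share of all genes set apart in this way was not computed. At 6 months, when 5 silica and 4 air numbers occurred in both tissues, the values were 1.72 ± 0.18 in silica rats and 1.70 ± 0.080 in air rats (SD), a difference of 0.014 (exact p = 0.873).

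**Figure D5:**
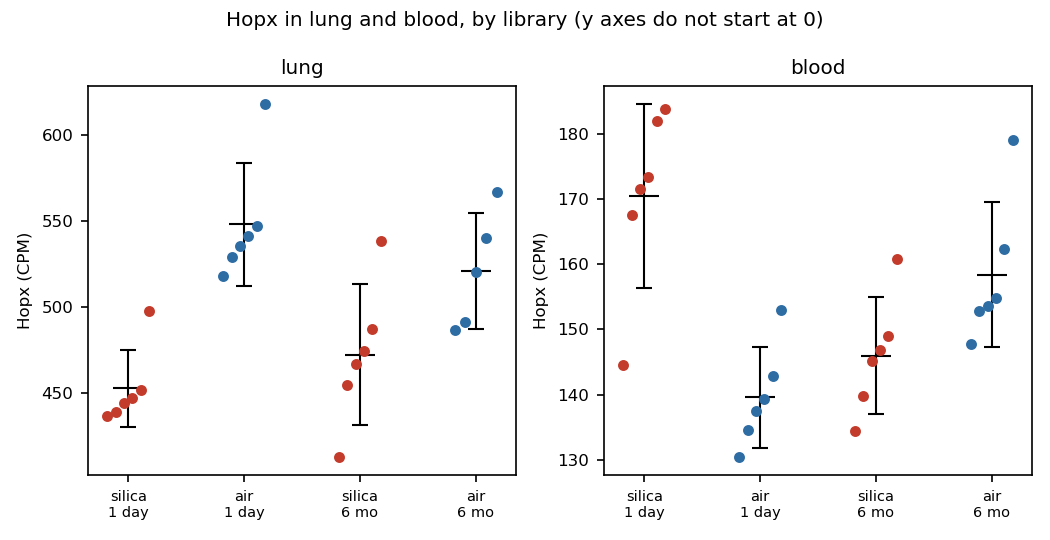
Hopx CPM in lung (left) and blood (right) by library, silica left of air at 1 day and 6 months, on axes that do not start at 0; bars are the mean and SD. At 1 day the silica rats lie below the air rats in lung and mostly above them in blood.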

How the data were processed

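Lung and blood of either time came as 4 deposited tables of estimated counts, which had not been normalized. Per the submitters' processing notes, the tools were Salmon 1.10.1, STAR 2.6.1d, Trim Galore 0.6.7, cutadapt 3.4 and bcl2fastq 2.19, on the build Rnor_6.0; their roles and order are not given in the sources used here. Per the labels' protocols, globin RNA was depleted from blood. Columns were matched to samples by title. The labels name no cages or chambers for a rat. The tests set differences between groups against the spread between rats of a group, and spread between chambers could not be taken into account. No 2 libraries of a group agreed within sampling noise.

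Counts were rounded and fitted in edgeR 4.0.16 (R 4.3.3) by quasi-likelihood, with TMM scaling, the filterByExpr filter (minimum 10 counts) and Benjamini-Hochberg adjustment over all genes tested (threshold 0.05): silica against air within each table, and as an interaction over the 4 lung groups. The fits were tested on simulated data. The SE was taken as the fold change (log2) divided by the square root of F. CPM used TMM-scaled libraries; correlations used log2 CPM with a prior count of 2. Lung totals ran from 12050267 to 25875985 counts, and the lowest blood total was 9643527. Estimated counts share reads out among near-identical genes, which makes values within gene families less certain.

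The 8 genes and the 18 other lists (174 genes, of which 4 were not matched to a name in the tables: Cavin1, Cavin2, Cavin4 and Hba-a1) were chosen with earlier results of these data known. From each list, up to 3 genes with the smallest p among those past the threshold and a fixed set of markers could be named. Some genes, among them Ptprc and Cd68, were named outside this rule. Promoters came from RefSeq (GRCr8), in which all 8 genes were found. Alternatives were DESeq2 1.42.0, limma-voom (limma 3.58.1), other scalings and filters, sva 3.50.0, and leaving out each library. The pair ratios and the lung against blood comparison were added after the data were seen. Correlations between genes were planned as a description without p, and their permutation tests were not part of that plan.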

Additional observations from a re-analysis of the deposited data

Results flagged for a closer look

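Single lungs stood away from the rest of their group in 4 of the 36 sets of values examined for a distant sample, where chance flags about 1 in 20. Hopx was 497.4 CPM in the lung of silica rat 43 at 1 day, the highest of its group, and 618 CPM in that of air rat 39 at 1 day, the highest of its group. Pdpn was 504 CPM in the lung of silica rat 47 at 1 day, the lowest of its group. Cldn18 was 1093 CPM in the lung of air rat 52 at 6 months, while the other 4 air lungs were between 1000.4 and 1010.0 CPM.

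The silica effect on Hopx differed between lung and blood at 1 day: log2 lung minus blood was lower by 0.56 in silica rats than in air rats (difference -0.56, exact permutation p = 0.00216). The share of all genes with such a difference was not computed, and the blood call was lost in most fits that left out a library.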

How the results depend on the processing

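Of the calls in lung, those of Cav1 and Hopx at 1 day held in all 22 alternatives run, and those of Cav1 and Cldn18 at 6 months in all 21 (Cldn18 adjusted p 0.000763 to 0.041). The number of genes of the 8 that fell at 1 day was 5, and 2 to 5 with a library left out. At 6 months it was 3, and 2 to 4 with a library left out, and 1 without the filter on low counts, where more genes were tested; the Ager and Clic5 calls were then lost (adjusted p = 0.134 and 0.0579). Ager at 6 months was lost in 10 of 21 alternatives in all, among them the fits with all 4 lung groups, 1 surrogate variable and robust dispersion. Clic5 at 1 day passed in 6 of 22 and Pdpn at 1 day was lost in 13 of 22; Aqp5 at 6 months passed with DESeq2 (adjusted p = 0.0291) and with all 4 lung groups (adjusted p = 0.04). In blood at 1 day the number that rose was 1, and 0 to 1 with a library left out. No alternative turned the direction of a call, and every scaling moved the median of all genes by under 0.02 (log2).

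DESeq2 called 360 genes in blood at 1 day against 168 by edgeR, 2 against 1 in blood at 6 months, and 351 against 217 for the time difference in lung. No paired analysis was possible for silica against air because each rat had 1 treatment. For Hopx in lung against blood, labels were also shuffled in each tissue apart, without regard to animal number. This gave -0.56 at 1 day (permutation p = 1e-05, the smallest that the resamples can give). It treats lung and blood of 1 number as independent, so its p cannot be set against the exact p. At 6 months it gave -0.026 over all libraries (permutation p = 0.798). The paired difference there, over the numbers found in both tissues only, was 0.014. For the named genes of the other lists, 3042 refits kept the direction and the side of the threshold, 106 lost a call, 48 gained one, and 17, over 7 results that were not called, turned in sign. Chamber and treatment cannot be told apart, and CPM shows shares of RNA, not amounts per lung.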
